A study of Mus musculus with 18 samples.

Results

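Transcripts of 42 lysosomal genes were measured in immune cells taken from mouse brain: 14 cathepsins and other lysosomal proteases, 11 enzymes that cut sugar chains, 5 proteins of lipid breakdown, 6 membrane proteins or granulins, 4 subunits of the proton pump and 2 transcription factors of the pathway. They were picked by symbol, with no measured value in the rule. All 42 were found among the 57010 genes of the count table, and all 42 were among the 15528 genes with enough counts to be tested. RNA was sequenced from CD11b-selected cells of male wild-type mice, after beads against Ly6G had removed neutrophils. The 6 groups held 3 libraries each, labelled as biological replicates. Aged mice of 18 to 20 months with an ischemic stroke (middle cerebral artery occlusion) received bexarotene or vehicle, aged mice of the same age with no disease named received bexarotene or vehicle, and so did young mice of 2 to 4 months. Bexarotene activates the retinoid X receptor (RXR), and 5 mg/kg was injected into the peritoneum 24 hours after surgery and on each of the next 2 days. Vehicle was 3% DMSO in saline, and every group is labelled day 3. The labels do not say what surgery was done in the groups without stroke. There was no young stroke group among the samples.

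Lysosomes are the acid compartments in which cells break down proteins, sugars and lipids that arrive by phagocytosis, endocytosis or autophagy. A proton pump, the V-ATPase, keeps them acidic, most hydrolases are delivered there by sorting receptors, and heavily glycosylated membrane proteins line the wall. TFEB and TFE3 are related transcription factors that turn on many lysosomal genes when they enter the nucleus, a step controlled by nutrient signalling at the lysosome surface and not by their own transcript level alone. They bind a short palindrome, CACGTG, within a longer element called the CLEAR element. In microglia and macrophages the lysosome digests myelin, dying cells and protein aggregates, and inherited loss of many of these enzymes causes lysosomal storage disease.

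The promoters of 5 genes whose transcripts differed with stroke under vehicle or bexarotene are shown here, because they hold the palindrome that TFEB and TFE3 bind. The sequences are RefSeq windows of GRCm38.p6 that run from 250 bases before to 50 bases after the annotated start, read on the gene's strand, with each CACGTG in capitals. Gla encodes alpha-galactosidase A, and its window is chrX:134600956-134601255 on the minus strand. Atp6v1a encodes the subunit of the proton pump that hydrolyses ATP, with its window at chr16:44139210-44139509 on the minus strand. Atp6v0d1 encodes a membrane-sector subunit of the pump, with its window at chr8:105566015-105566314 on the minus strand. Ctsd encodes cathepsin D, an aspartic protease, with its window at chr7:142387778-142388077 on the minus strand. Ctsf encodes the cysteine protease cathepsin F, with its window at chr19:4854915-4855214 on the plus strand.
Gla: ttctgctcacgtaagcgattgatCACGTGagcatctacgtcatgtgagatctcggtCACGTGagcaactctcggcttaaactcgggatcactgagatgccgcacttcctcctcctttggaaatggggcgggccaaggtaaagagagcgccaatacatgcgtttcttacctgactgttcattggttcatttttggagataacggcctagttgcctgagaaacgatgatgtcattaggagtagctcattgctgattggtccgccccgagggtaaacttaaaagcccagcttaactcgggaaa
Atp6v1a: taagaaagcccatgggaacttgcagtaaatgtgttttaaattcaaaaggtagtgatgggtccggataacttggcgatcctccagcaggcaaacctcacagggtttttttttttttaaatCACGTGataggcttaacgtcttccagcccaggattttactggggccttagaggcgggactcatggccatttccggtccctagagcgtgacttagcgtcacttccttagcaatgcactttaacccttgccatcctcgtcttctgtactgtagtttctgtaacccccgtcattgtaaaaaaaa
Atp6v0d1: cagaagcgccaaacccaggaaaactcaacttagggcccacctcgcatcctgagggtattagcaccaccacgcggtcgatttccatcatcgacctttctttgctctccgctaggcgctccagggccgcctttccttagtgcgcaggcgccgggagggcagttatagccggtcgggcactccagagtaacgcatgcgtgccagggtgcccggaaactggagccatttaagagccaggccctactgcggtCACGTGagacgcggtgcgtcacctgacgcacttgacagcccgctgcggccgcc
Ctsd: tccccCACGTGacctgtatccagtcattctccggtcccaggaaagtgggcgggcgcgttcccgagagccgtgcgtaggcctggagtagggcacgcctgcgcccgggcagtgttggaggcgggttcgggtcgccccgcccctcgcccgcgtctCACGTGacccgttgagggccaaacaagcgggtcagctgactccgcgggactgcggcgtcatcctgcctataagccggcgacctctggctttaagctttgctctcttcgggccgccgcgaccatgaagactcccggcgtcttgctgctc
Ctsf: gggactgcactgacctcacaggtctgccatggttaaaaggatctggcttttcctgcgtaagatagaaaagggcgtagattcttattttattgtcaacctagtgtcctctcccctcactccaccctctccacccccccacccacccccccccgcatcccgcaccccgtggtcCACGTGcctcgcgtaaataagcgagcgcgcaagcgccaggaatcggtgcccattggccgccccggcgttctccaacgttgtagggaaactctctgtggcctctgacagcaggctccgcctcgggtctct

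Of the 42 genes, 35 matched an entry of the promoter table, and 14 of these 35 (40.0%) held CACGTG in at least 1 window, against 8.09% of all 27025 genes in that table. The 8-base form TCACGTGA, which contains CACGTG, was present in 7 of the 35 (20.0%), against 1.12% of all genes. TCATGTGA, a related sequence that does not contain CACGTG, was present in 5 of the 35 (14.3%) on either strand, against 1.15% of all genes. CACGTG was also found among genes with opposite results in stroke. It stood in the windows of 5 of 13 matched genes that were higher with stroke under vehicle, in 1 of 11 that were lower (Ctsf), and in 8 of 11 that did not pass the test. A match describes letters in the window and is not a measured binding site.

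Per kilobase of exon, the cathepsin transcripts led. Levels are given as CPM, counts scaled to library size, and here divided by the summed length of each gene's exons in kilobases. In young vehicle mice Ctss (cathepsin S, a cysteine protease of antigen presentation) stood at 5240 CPM per kilobase, and Ctsd followed at 3200. Lgmn (legumain, an asparaginyl protease that matures other cathepsins) was at 1400 and Psap (prosaposin, precursor of the saposins that help lipid breakdown) at 1390 on the same scale. The transcripts of Ctse, Atp6v0d2 and Ctsk were the lowest, at 0.482, 0.208 and 0.157 CPM per kilobase. With stroke under vehicle, Ctss and Ctsd kept the first 2 places at 5130 and 3770 CPM per kilobase, and Ctsb held the fourth place at 1790, against the sixth place in aged vehicle mice at 957.

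The share of all counts that fell in the 42 genes was highest with stroke. It was 6.35 ± 0.228% in aged stroke bexarotene, 5.8 ± 0.427% in aged stroke vehicle, 5.01 ± 0.252% in aged bexarotene, 5.11 ± 0.311% in aged vehicle, 4.66 ± 0.276% in young bexarotene and 4.39 ± 0.328% in young vehicle libraries (SD, n = 3 each). Every stroke library was above every library without stroke in this share, and cathepsins and other proteases made up most of it. Ctsb, Ctsd and Ctss together held 44.4% of the 42 genes' counts in aged stroke vehicle and 46.0% in aged vehicle libraries, but their order differed. Ctsb held 18.0% in aged stroke vehicle against 11.4% in aged vehicle libraries, and Ctss held 11.7% in aged stroke vehicle against 18.1% in aged vehicle libraries.

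**Figure D1:**
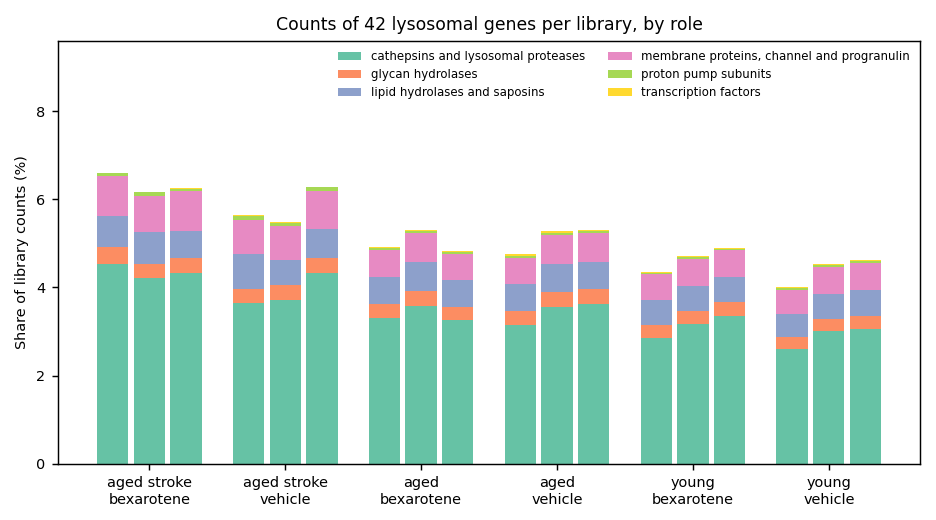
Share of each library's total counts (%, vertical axis) that fell in the 42 lysosomal genes, 1 bar per library in 6 groups of 3, with colours for the roles of the genes. The 6 stroke libraries lie between 5.48% and 6.61%, above the 12 libraries without stroke, which lie between 4.01% and 5.3%.

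Stroke libraries also differed from the others in depth and in cell markers, which bears on every stroke result. Total counts ran from 16206144 to 29359943 with stroke and from 7582511 to 11852638 without. The first principal component of all genes held 59.9% of the variance and separated stroke from no stroke. The cells carried the markers of their label, since all 11 homeostatic microglia markers were detected in every group, while 8 neuronal markers summed to at most 4.11 CPM. With stroke under vehicle, 9 of the 11 homeostatic microglia markers were lower and none was higher, and their summed level was 24300 to 25900 CPM in aged stroke vehicle against 52100 to 55700 CPM in aged vehicle libraries. All 12 markers of infiltrating monocytes were higher, with a summed level of 3730 to 5760 CPM in aged stroke vehicle against 296 to 304 CPM in aged vehicle libraries. Of 12 neutrophil markers 5 were called higher and none lower, 41.7% in all, against 48.3% of all genes tested. These 12 summed to 1090 to 2610 CPM in aged stroke vehicle against 684 to 953 CPM in aged vehicle libraries. Csf3r alone gave 390 to 501 CPM in aged stroke vehicle and 434 to 527 CPM in aged vehicle libraries. Ngp, not called, had 17.9 to 49.3 CPM in aged stroke vehicle against 44.6 to 110 CPM in aged vehicle libraries. Of 12 genes that respond to tissue dissociation 9 were higher and 2 lower (5870 to 8740 CPM in aged stroke vehicle against 2050 to 3620 CPM in aged vehicle libraries). Under bexarotene the corresponding sums were 22300 to 28200 CPM in aged stroke bexarotene against 48100 to 55500 CPM in aged bexarotene for homeostatic microglia, and 3140 to 6000 CPM in aged stroke bexarotene against 366 to 467 CPM in aged bexarotene for monocytes. They were 990 to 3790 CPM in aged stroke bexarotene against 1070 to 2100 CPM in aged bexarotene for neutrophils, and 4530 to 8260 CPM in aged stroke bexarotene against 2750 to 3750 CPM in aged bexarotene for the dissociation response. Of the neutrophil markers 1 was called higher and 1 lower there, 16.7% in all, against 48% of all genes tested. The libraries numbered 1 stood apart in 7 choroid plexus and ependymal genes, which summed to 1748 to 3170 CPM in library 1 and 203.5 to 1128 CPM in libraries 2 and 3 of every group except aged stroke bexarotene (616 CPM in library 1). Without all libraries numbered 1, a setting added after seeing the data, 27 of the 42 lysosomal genes were called with stroke under vehicle and 27 under bexarotene, against 29 and 28 with them. The part of these marker differences in the lysosomal results was not tested, and in bulk RNA fewer cells of a type and less RNA per cell cannot be told apart.

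At day 3 of stroke, the lysosomal genes of aged vehicle mice split, with some enzymes far higher and others lower. A gene is called higher or lower where edgeR's quasi-likelihood test gave an adjusted p under 0.05 over all 15528 genes. Of the 42 genes 17 were higher, 12 were lower and 13 did not pass, so 69% were called, against 48.3% of all genes tested (27.2% higher and 21.1% lower). The largest rises after that of the scarce Ctsk were in Gla, Galns and Ctse, and the largest falls were in the proteases Ctsf and Ctso. The median log2 fold change of the 42 genes was 0.198, against 0.023 over all genes tested, and it was 0.0831 without the libraries numbered 1 and 0.107 without aged vehicle library 1. In 34 of the 42 genes the 3 libraries of one group lay wholly above or below those of the other, which was true of 56.1% of all genes tested.

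Among the 14 proteases, 6 were higher, 4 were lower and 4 did not pass. Ctsb (cathepsin B, an abundant cysteine protease) had 9924, 9454 and 13090 CPM in aged stroke vehicle, against 4785, 6220 and 6374 CPM in aged vehicle libraries. All 3 stroke libraries lay above all 3 without stroke, and the log2 fold change was 0.90 ± 0.14 (SE, here and below), with an adjusted p of 2.6e-05. Ctsl, the related cysteine protease cathepsin L, had 1671, 2011 and 2568 CPM in aged stroke vehicle and 988, 1240 and 1260 CPM in aged vehicle libraries, a log2 fold change of 0.84 ± 0.14 (adjusted p = 6.12e-05). Ctsc (cathepsin C, which activates serine proteases of granules) rose by 0.77 ± 0.10 and Ctsz (cathepsin Z, a carboxypeptidase) by 0.48 ± 0.14 on the log2 scale. The call of Ctsz was lost without aged vehicle library 1 (0.35, adjusted p = 0.0605) and without aged stroke vehicle library 3 (0.35, adjusted p = 0.0525).

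Both scarce cathepsins, Ctse and Ctsk, were called higher. Ctse (cathepsin E, an aspartic protease of endosomes) had 9.19, 9.44 and 6.46 CPM in aged stroke vehicle, against 2.17, 2.64 and 2.40 CPM in aged vehicle libraries, a log2 fold change of 1.79 ± 0.40 (adjusted p = 0.00106). Ctsk (cathepsin K, the collagen-cutting protease of osteoclasts) varied most between stroke libraries. It had 535, 14 and 218 counts in aged stroke vehicle libraries 1, 2 and 3, against 5, 2 and 0 counts in aged vehicle libraries. Its log2 fold change was 5.82 ± 1.23 (adjusted p = 0.00112), and as a ratio of summed counts per total count it was 59.9 (28.9 to 149, a 95% interval for counting error only). The groups did not overlap, but limma voom did not call Ctsk (adjusted p = 0.273).

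The lower proteases were led by Ctsf and Ctso, both cysteine cathepsins. Ctsf had 124, 122 and 109.5 CPM in aged stroke vehicle and 267, 269.5 and 270.3 CPM in aged vehicle libraries, and fell by 1.18 ± 0.12 on the log2 scale (adjusted p = 2.52e-07). Ctso had 169.5, 140 and 136 CPM in aged stroke vehicle against 267, 335 and 315 CPM in aged vehicle libraries, a fall of 1.04 ± 0.12 (adjusted p = 1.6e-06). For both genes every stroke library was below every library without stroke, and Ctsf differed little between the 3 aged vehicle libraries. Ctss had 7008, 7159 and 6729 CPM in aged stroke vehicle, against 8204, 9696 and 9730 CPM in aged vehicle libraries, and fell by 0.40 ± 0.12 (adjusted p = 0.00809). Tpp1 (tripeptidyl peptidase, lost in a form of neuronal ceroid lipofuscinosis) fell by 0.32 ± 0.09 on the log2 scale, a call lost with no filter on low counts (adjusted p = 0.0539).

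Proteases that did not pass included Ctsd and Lgmn, which follow Ctss among the proteases of aged vehicle mice in level per kilobase. Ctsd had 8281, 7013 and 11280 CPM in aged stroke vehicle and 7013, 8480 and 9697 CPM in aged vehicle libraries, so the groups overlapped. Its log2 fold change was 0.08 ± 0.15, with a 95% interval of -0.24 to 0.40. Lgmn had 3388, 3623 and 3409 CPM in aged stroke vehicle against 3108, 3247 and 3269 CPM in aged vehicle libraries, with a log2 fold change of 0.11 ± 0.09 and a 95% interval of -0.08 to 0.30. Every stroke library was above every aged vehicle library for Lgmn, and the adjusted p was 0.316. Ctsa (cathepsin A, the protective protein of other lysosomal enzymes) and Ctsh (an aminopeptidase) had log2 fold changes of -0.10 ± 0.09 and 0.21 ± 0.11.

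Of the 11 sugar-cutting enzymes 5 were higher, 4 lower and 2 not called, and the rises of Gla and Galns were the largest after that of Ctsk. Gla, which removes terminal galactose and is lost in Fabry disease, had 98.3, 71.9 and 96.2 CPM in aged stroke vehicle, against 4.26, 16.8 and 12.7 CPM in aged vehicle libraries. The stroke libraries were several-fold above the others, and aged vehicle library 1 lay below the other two of its group. The log2 fold change was 2.99 ± 0.31 (adjusted p = 1.03e-06). Galns, a sulfatase that acts on keratan and chondroitin sulfate, had 58.4, 58.1 and 70.8 CPM in aged stroke vehicle and 15.4, 18.2 and 14.7 CPM in aged vehicle libraries, a log2 fold change of 1.96 ± 0.19 (adjusted p = 2.44e-07). Gusb, beta-glucuronidase, had 707, 799 and 955 CPM in aged stroke vehicle against 318, 345 and 384 CPM in aged vehicle libraries, a log2 fold change of 1.23 ± 0.10 (adjusted p = 3.19e-08).

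Smaller rises came from Naglu (an enzyme of heparan sulfate breakdown, 0.49 ± 0.11) and Neu1 (a sialidase, 0.44 ± 0.10). Idua and Ids, which also act on heparan and dermatan sulfate, fell by 0.40 ± 0.10 and 0.32 ± 0.09 on the log2 scale, and the call of Ids was lost with no filter on low counts (adjusted p = 0.0636). Hexa, the alpha subunit of beta-hexosaminidase, fell by 0.33 ± 0.12, and Man2b1, an alpha-mannosidase, by 0.37 ± 0.11. The call of Hexa was lost when aged vehicle library 2 or 3 or aged stroke vehicle library 2 was left out, with a log2 fold change of -0.34, -0.28 or -0.27. Glb1 (beta-galactosidase, 0.25 ± 0.12, adjusted p = 0.0788) and Gaa (acid alpha-glucosidase, -0.01 ± 0.10) did not pass. Naglu was thus higher while Ids and Idua were lower. This contrast leaves out Gusb, which was higher by 1.23 ± 0.10 on the log2 scale with stroke under vehicle. It does not describe heparan sulfate breakdown as a whole.

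Of the 5 genes of lipid breakdown, 1 was higher, 2 were lower and 2 did not pass. Lipa, the acid lipase that frees cholesterol from its esters, had 314, 258 and 300.4 CPM in aged stroke vehicle and 188, 226 and 217 CPM in aged vehicle libraries, a log2 fold change of 0.47 ± 0.10 (adjusted p = 0.000663). Smpd1, acid sphingomyelinase, had 73.6, 66.5 and 84.3 CPM in aged stroke vehicle against 98.4, 94.0 and 113 CPM in aged vehicle libraries and fell by 0.44 ± 0.11 (adjusted p = 0.00321). Asah1, acid ceramidase, had 784, 754 and 785 CPM in aged stroke vehicle against 881, 1051 and 957 CPM in aged vehicle libraries and fell by 0.31 ± 0.10 (adjusted p = 0.012), a call lost with no filter on low counts (adjusted p = 0.0609). Within this role Smpd1 and Asah1 were thus lower and Lipa higher, with no overlap between groups in any of them. Some genes counted above as sugar-cutting enzymes, Gla among them, also act on sphingolipids, so this does not describe sphingolipid breakdown as a whole. Psap had 6509, 4045 and 5187 CPM in aged stroke vehicle and 4132, 4636 and 4658 CPM in aged vehicle libraries, with stroke library 2 below all 3 libraries without stroke. Its log2 fold change was 0.23 ± 0.14, and that of Ppt1, which removes palmitate from proteins, was 0.13 ± 0.09.

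Among the 6 genes for membrane proteins, the calcium channel and progranulin, 2 were higher and none was lower. Grn encodes progranulin, a secreted and lysosomal protein whose loss causes lysosomal disease of the brain. It had 3256, 3275 and 3923 CPM in aged stroke vehicle, against 1885, 2142 and 2136 CPM in aged vehicle libraries, a log2 fold change of 0.76 ± 0.10 (adjusted p = 4.68e-06). Cd68, the LAMP-family protein widely used to stain phagocytes, had 1122, 1083 and 1402 CPM in aged stroke vehicle and 746, 938 and 921 CPM in aged vehicle libraries, a log2 fold change of 0.47 ± 0.13 (adjusted p = 0.00758). Without aged vehicle library 1 (0.34, adjusted p = 0.0704) or aged stroke vehicle library 3 (0.35, adjusted p = 0.0576) Cd68 was no longer called, nor was it without the libraries numbered 1.

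The wall proteins themselves did not pass. Lamp1 had 1781, 1699 and 1900 CPM in aged stroke vehicle and 1554, 1793 and 1804 CPM in aged vehicle libraries. Its groups overlapped, and the 95% interval of its log2 fold change was -0.14 to 0.26. Lamp2, the related protein needed for fusion with autophagosomes, had a log2 fold change of 0.19 ± 0.09, and Cln3, a membrane protein lost in juvenile Batten disease, of -0.04 ± 0.09. Mcoln1, the calcium channel through which lysosomes signal to TFEB, had 70.6, 73.2 and 72.8 CPM in aged stroke vehicle and 114, 78.5 and 85.5 CPM in aged vehicle libraries. Every stroke library was lower, its log2 fold change was -0.36 ± 0.16, and its adjusted p was 0.079. DESeq2 called it lower, as did 4 further settings of the 15 tried.

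Of the 4 proton pump subunits 3 were higher and none was lower. Atp6v1a had 272, 245 and 322 CPM in aged stroke vehicle, against 128, 137 and 125 CPM in aged vehicle libraries, a log2 fold change of 1.11 ± 0.12 (adjusted p = 5.85e-07). Atp6v1b2, its partner in the catalytic ring, had 349, 303 and 339 CPM in aged stroke vehicle against 196, 239 and 222 CPM in aged vehicle libraries, a log2 fold change of 0.59 ± 0.11, and Atp6v0d1 had 147, 125 and 139.6 CPM in aged stroke vehicle against 87.1, 105 and 101 CPM in aged vehicle libraries, one of 0.49 ± 0.12. In none of these 3 did the groups overlap, but Atp6v0d1 was not called without the libraries numbered 1 (0.32, adjusted p = 0.0791). Atp6v0d2, the form of the same subunit known from osteoclasts and some macrophages, had 6.93, 1.65 and 2.42 CPM in aged stroke vehicle and 0.181, 4.21 and 0.672 CPM in aged vehicle libraries. Aged vehicle library 2 stood far above the other two of its group, and the log2 fold change was 1.13 ± 0.92. Without that library it was 3.07 (adjusted p = 0.0264), and without the libraries numbered 1 it was -0.30 (adjusted p = 0.836), so neither its size nor its direction was stable.

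Both transcription factors were lower with stroke. Tfe3 had 144, 131 and 132 CPM in aged stroke vehicle, against 224, 224 and 210.3 CPM in aged vehicle libraries, and fell by 0.70 ± 0.09 on the log2 scale (adjusted p = 2.86e-06). Tfeb had 43.0, 37.8 and 40.1 CPM in aged stroke vehicle and 54.4, 56.2 and 55.2 CPM in aged vehicle libraries, a fall of 0.45 ± 0.13 (adjusted p = 0.00624). Their groups did not overlap, and the transcript of neither says where the protein was in the cell.

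**Figure D2:**
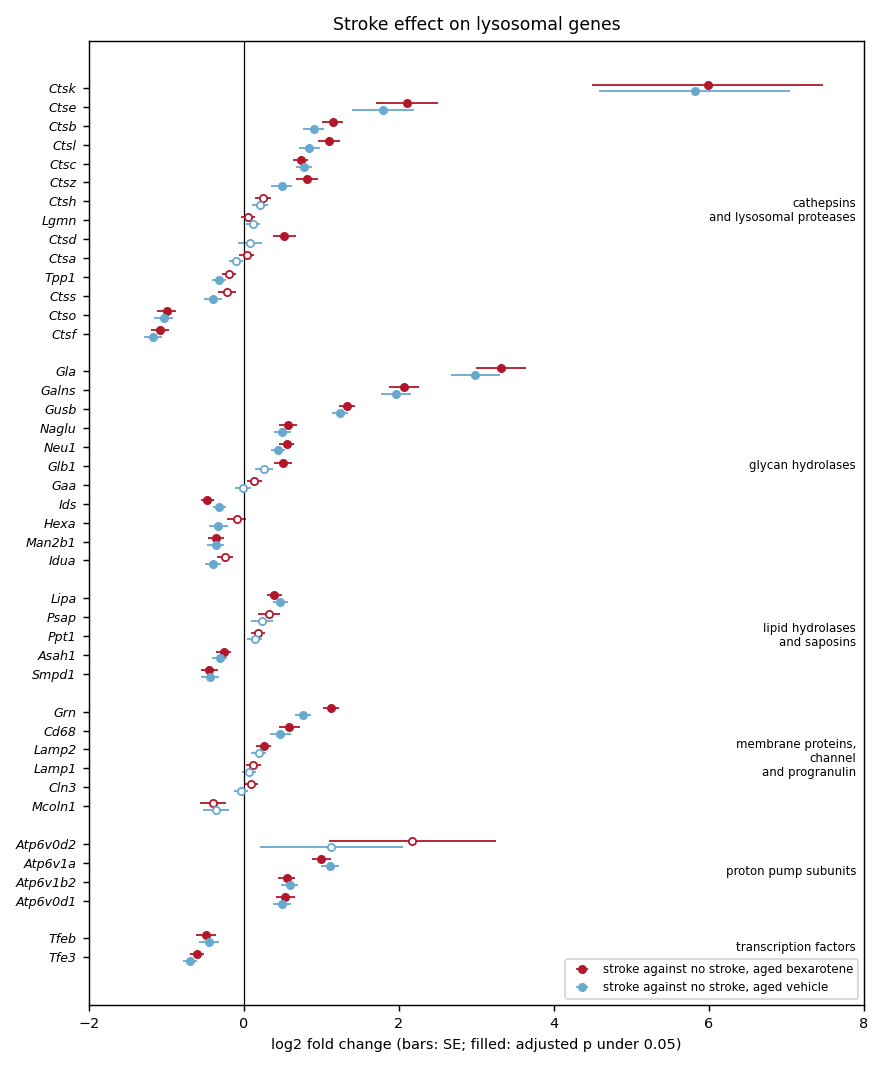
Log2 fold change with stroke (horizontal axis, bars are SE, n = 3 libraries per group) for the 42 lysosomal genes grouped by role, in aged bexarotene mice (red) and aged vehicle mice (blue), with filled points for an adjusted p under 0.05. Gla, Galns, Ctse, Gusb and Ctsk lie far to the right in both, and Ctsf, Ctso, Tfe3 and Tfeb lie left of 0 in both.

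With bexarotene, most calls after stroke were those made under vehicle. Of the 42 genes 20 were higher, 8 were lower and 14 did not pass, so 66.7% were called against 48% of all genes tested (26.8% higher and 21.2% lower). Their median log2 fold change was 0.288, against 0.00389 over all genes tested. This comparison shares no libraries with the one under vehicle. The 17 genes higher under vehicle were 85% of the 20 higher under bexarotene, which held all 17, and the further 3 were Ctsd, Glb1 and Lamp2. The 8 lower genes (Ctsf, Ctso, Ids, Man2b1, Asah1, Smpd1, Tfeb and Tfe3) were all among the 12 lower under vehicle, and were 66.7% of them. The sign of the fold change was shared in 39 of the 42 genes. The overlap of calls and the shared sign were not computed over all genes tested. The agreement is therefore not shown to be particular to these 42. In 31 of the 42 the libraries with and without stroke were fully separate, against 56.3% of all genes tested.

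After that of Ctsk, the largest rise was again that of Gla. It had 69.4, 110.3 and 70.4 CPM in aged stroke bexarotene, against 8.75, 8.32 and 8.01 CPM in aged bexarotene libraries, a log2 fold change of 3.31 ± 0.32 (adjusted p = 4.33e-07). Galns had 63.4, 74.8 and 66.4 CPM in aged stroke bexarotene and 14.8, 20.98 and 12.98 CPM in aged bexarotene libraries, one of 2.06 ± 0.19. Gusb had 885, 923 and 891 CPM in aged stroke bexarotene against 354, 358 and 365 CPM in aged bexarotene libraries, one of 1.33 ± 0.10. The groups stood far apart in all 3, with no overlap. Naglu, Neu1 and Glb1 rose by 0.57 ± 0.11, 0.55 ± 0.10 and 0.50 ± 0.12 on the log2 scale, while Ids and Man2b1 fell by 0.47 ± 0.09 and 0.36 ± 0.10. Hexa (-0.09 ± 0.12), Idua (-0.24 ± 0.10) and Gaa (0.13 ± 0.10) did not pass, though 8 of 15 other settings called Idua lower. Man2b1 was not called without aged bexarotene library 2 or without aged stroke bexarotene library 2.

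Of the proteases 7 were higher, 2 were lower and 5 did not pass. Ctsb had 11850, 12760 and 11190 CPM in aged stroke bexarotene, against 5289, 5839 and 5066 CPM in aged bexarotene libraries, a log2 fold change of 1.14 ± 0.14 (adjusted p = 1.88e-06). Ctsl had 2336, 2174 and 2511 CPM in aged stroke bexarotene and 1051, 1107 and 1122 CPM in aged bexarotene libraries, one of 1.10 ± 0.14. Ctsd, not called under vehicle, had 12420, 11120 and 10500 CPM in aged stroke bexarotene against 7701, 8610 and 7398 CPM in aged bexarotene libraries, with no overlap and a log2 fold change of 0.52 ± 0.15 (adjusted p = 0.00895). That Ctsd call was lost when the libraries numbered 1 were left out of every group. Ctsz, Ctsc and Ctse rose by 0.81 ± 0.14, 0.73 ± 0.10 and 2.10 ± 0.40.

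Ctsk had 204, 92 and 15 counts in aged stroke bexarotene libraries 1, 2 and 3, against 1, 1 and 0 counts in aged bexarotene libraries, a ratio per total count of 70.5 (19.3 to 584, a 95% interval for counting error only). Limma voom did not call it here either (adjusted p = 0.377). Ctsf had 149.8, 103 and 139 CPM in aged stroke bexarotene and 263, 301 and 268 CPM in aged bexarotene libraries, and fell by 1.09 ± 0.12 on the log2 scale. Ctso had 157, 123 and 152 CPM in aged stroke bexarotene against 291, 301 and 270.2 CPM in aged bexarotene libraries and fell by 1.00 ± 0.12. Both were lower in every stroke library. Ctss had 7452, 6799 and 8389 CPM in aged stroke bexarotene and 8193, 9774 and 8490 CPM in aged bexarotene libraries, and with a log2 fold change of -0.22 ± 0.12 it did not pass (adjusted p = 0.123). Lgmn had 3724, 3732 and 3567 CPM in aged stroke bexarotene against 3384, 3887 and 3377 CPM in aged bexarotene libraries, the groups overlapped, and its log2 fold change was 0.05 ± 0.09. Tpp1, Ctsa and Ctsh had log2 fold changes of -0.19 ± 0.09, 0.03 ± 0.09 and 0.25 ± 0.11 and were not called.

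The other roles split as under vehicle. Grn had 4240, 3883 and 4142 CPM in aged stroke bexarotene, against 1812, 1991 and 1830 CPM in aged bexarotene libraries, a log2 fold change of 1.12 ± 0.10 (adjusted p = 6.51e-08). Cd68 had 1267, 1289 and 1034 CPM in aged stroke bexarotene and 779, 926 and 687 CPM in aged bexarotene libraries, one of 0.59 ± 0.13 (adjusted p = 0.00151). Lamp2 was called at 0.25 ± 0.09 (adjusted p = 0.0347), a call that was lost in 10 of 15 other settings, library totals and thinned counts among them. Lamp1 had 1923, 1872 and 2017 CPM in aged stroke bexarotene and 1728, 1913 and 1719 CPM in aged bexarotene libraries, and at 0.12 ± 0.10 it did not pass. Mcoln1 had 90.8, 69.2 and 67.8 CPM in aged stroke bexarotene against 107, 83.3 and 111 CPM in aged bexarotene libraries, one of -0.40 ± 0.16 (adjusted p = 0.0522). It was not called, though 10 of 15 other settings called it lower, and Cln3 was at 0.09 ± 0.09.

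Atp6v1a, Atp6v1b2 and Atp6v0d1 rose by 1.00 ± 0.12, 0.55 ± 0.11 and 0.53 ± 0.12 on the log2 scale, and Lipa by 0.39 ± 0.10. Atp6v0d2 had 3.19, 1.19 and 0.324 CPM in aged stroke bexarotene and 0.309, 0.51 and 0.203 CPM in aged bexarotene libraries, with overlap and an adjusted p of 0.109. Smpd1 fell by 0.45 ± 0.11 and Asah1 by 0.27 ± 0.10, a call that Asah1 lost without any 1 of 4 of the 6 libraries. Psap had 5496, 6037 and 4469 CPM in aged stroke bexarotene and 4044, 4774 and 3970 CPM in aged bexarotene libraries, and at 0.32 ± 0.14 it did not pass, nor did Ppt1 at 0.18 ± 0.09. Tfe3 had 121, 130.1 and 121 CPM in aged stroke bexarotene against 211, 174 and 183 CPM in aged bexarotene libraries and fell by 0.61 ± 0.09. Tfeb had 43.6, 47.1 and 37.7 CPM in aged stroke bexarotene against 55.9, 68.6 and 56.1 CPM in aged bexarotene libraries and fell by 0.49 ± 0.13. All 3 stroke libraries were below all 3 without stroke for both factors.

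**Figure D3:**
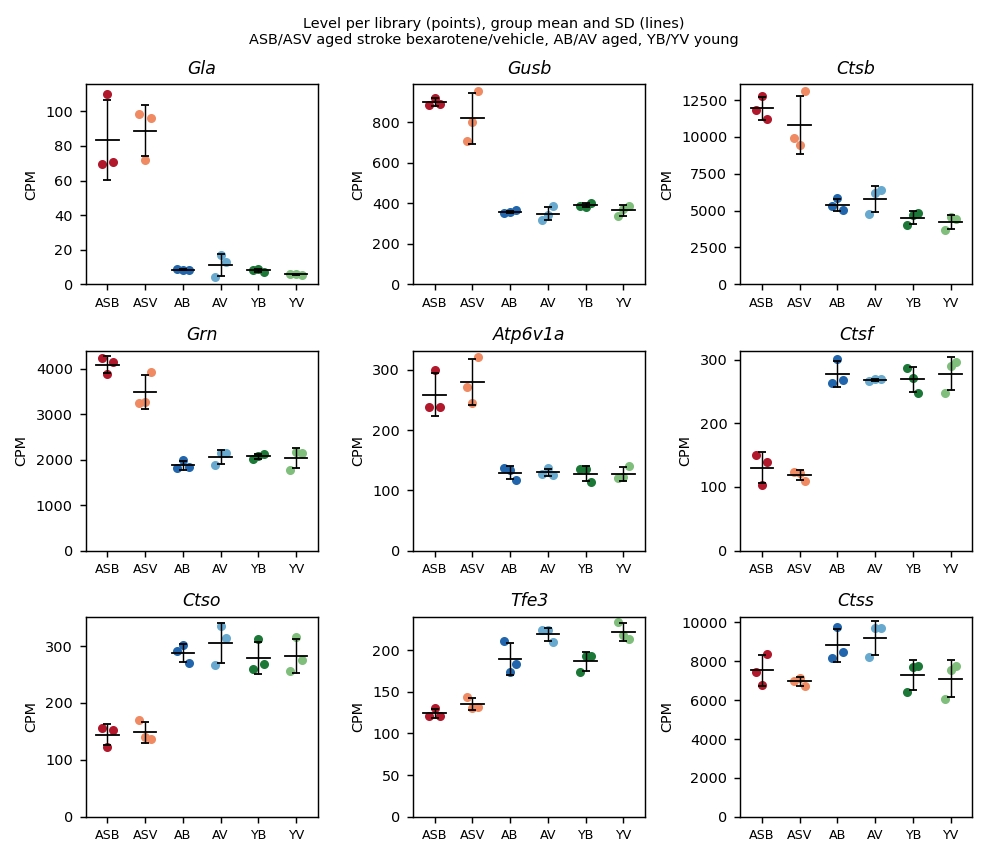
Level in CPM (vertical axes, from 0) of 9 lysosomal genes in every library, with points for libraries and lines for the group mean and SD (n = 3), in aged stroke bexarotene (ASB), aged stroke vehicle (ASV), aged bexarotene (AB), aged vehicle (AV), young bexarotene (YB) and young vehicle (YV) mice. Stroke libraries are higher than all others in Gla, Gusb, Ctsb, Grn and Atp6v1a and lower than all others in Ctsf, Ctso and Tfe3, while Ctss in stroke libraries overlaps with the young groups.

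Other genes of the same pathway were called in both directions with stroke, in a comparison in which 48.3% of all genes tested were called (27.2% higher and 21.1% lower). Of 25 further lysosomal hydrolases 12 were higher and 6 lower under vehicle, 72.0% in all, and the 3 with the lowest p were Naaa (an acid amidase, 1.56 ± 0.15), Acp2 (an acid phosphatase, -0.82 ± 0.09) and Acp5 (the acid phosphatase that marks osteoclasts, 5.57 ± 0.59, at 27.4 CPM in aged stroke vehicle against 0.571 CPM in aged vehicle libraries), as log2 fold changes with SE. Of 13 further pump subunits 6 were higher and 1 lower (53.8% called), and the higher ones included Atp6v0c (0.90 ± 0.12), Atp6v0e (0.53 ± 0.10) and Atp6v1f (0.47 ± 0.11). Of 15 tested membrane proteins of lysosomes 6 were higher and 6 lower (80.0% called), among them the tetraspanin Cd63 (0.89 ± 0.14), the chloride exchanger Clcn7 (0.41 ± 0.08) and the cystine exporter Ctns (-0.88 ± 0.11).

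Of 12 genes that sort enzymes to lysosomes 3 were higher and 3 lower, a share close to that of all genes tested. Gnptab, which makes the mannose 6-phosphate tag, rose by 1.63 ± 0.12 and Igf2r, a receptor for that tag, by 3.44 ± 0.42, while Sort1, another sorting receptor, fell by 0.76 ± 0.12 on the log2 scale. Of 15 regulators in nutrient sensing 5 were higher and 4 lower (60.0% called). Tfec, a relative of Tfeb and Tfe3, rose by 3.53 ± 0.40, at 8.42 CPM in aged stroke vehicle against 0.714 CPM in aged vehicle libraries. This scarce transcript was at 6.69 CPM in aged stroke bexarotene against 2.00 CPM in aged bexarotene libraries. Its stroke effect under bexarotene minus that under vehicle was -1.795 ± 0.54 on the log2 scale, which was not called. Rptor, the raptor subunit of mTORC1, fell by 1.12 ± 0.13 and Flcn, folliculin, by 0.74 ± 0.10. Of the 3 tested cystatins, which inhibit cathepsins, Cst3 fell by 1.77 ± 0.14, while Cstb and Cst7 rose by 2.31 ± 0.24 and 1.56 ± 0.39. Among 15 autophagy genes 5 were higher and 6 lower (73.3% called). Under bexarotene the counts with stroke were 11 higher and 5 lower for the hydrolases, 5 and 1 for the pump, 5 and 6 for the membrane proteins, 2 and 3 for sorting, 6 and 4 for nutrient sensing, 2 and 1 for the cystatins and 5 and 5 for autophagy, against 48% of all genes tested called in either direction.

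With age, none of the 42 lysosomal genes passed the test, though most values lay on the higher side. Under vehicle, 0 of the 42 genes were called between aged and young mice by edgeR, against 1.7% of all genes tested. The log2 fold change was above 0 in 35 of the 42, their median was 0.128 against -0.0143 over all genes tested, and 11 (26.2%) had an unadjusted p under 0.05, against 13.1% of all genes tested. In 12 of the 42 the groups did not overlap, against 18.4% of all genes tested. DESeq2 called 3 genes (Ctsb, Ctss and Ctsz) and limma voom called 0. Markers of border macrophages moved in the other direction, with 3 of 8 called lower. They summed to 526 to 680 CPM in aged vehicle against 867 to 1100 CPM in young vehicle libraries. Homeostatic microglia markers summed to 52120 to 55740 CPM in aged vehicle against 58100 to 69250 CPM in young vehicle libraries. For monocyte markers the sums were 296 to 304 CPM against 389 to 524 CPM, and for lymphocyte genes 21.1 to 25.8 CPM against 30.25 to 41.9 CPM. No single gene of these last lists was called, and the part of all these markers in the values was not tested.

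The 4 lowest p values belonged to abundant cathepsins. Ctsz had 1543, 1937 and 1895 CPM in aged vehicle, against 1117, 1377 and 1376 CPM in young vehicle libraries, a log2 fold change of 0.47 ± 0.14 (adjusted p = 0.0885). Ctsb had 4785, 6220 and 6374 CPM in aged vehicle and 3653, 4581 and 4439 CPM in young vehicle libraries, one of 0.46 ± 0.14 (adjusted p = 0.105). Ctss had 8204, 9696 and 9730 CPM in aged vehicle against 6038, 7555 and 7748 CPM in young vehicle libraries, one of 0.37 ± 0.12 (adjusted p = 0.131). Ctsl had 988, 1240 and 1260 CPM in aged vehicle against 756, 917 and 955 CPM in young vehicle libraries, one of 0.41 ± 0.14 (adjusted p = 0.166). In each of these 4 all aged libraries were above all young ones, though library 1 was the lowest of its group in both ages. The authors' deposited table of this comparison lists 451 genes with an adjusted p of at most 0.05, and these 4 are the lysosomal genes in it, with Ctsz at a log2 fold change of 0.335 (adjusted p = 0.00362) and Ctsb at 0.301 (adjusted p = 0.0128). The authors' deposited table gives Ctsl at 0.264 (adjusted p = 0.029) and Ctss at 0.246 (adjusted p = 0.0373).

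Among the other roles the pump subunits had the highest median. Their median log2 fold change was 0.271, against 0.184 for the proteases, 0.109 for the sugar-cutting enzymes and 0.166 for the genes of lipid breakdown. It was 0.115 for the membrane proteins and -0.0998 for the 2 transcription factors. The pump median rests on 4 genes, the scarce Atp6v0d2 among them, and the median of 13 further pump subunits was 0.124. Atp6v0d1 had 87.1, 105 and 101 CPM in aged vehicle and 68.7, 84.4 and 83.8 CPM in young vehicle libraries, a log2 fold change of 0.31 ± 0.12 (adjusted p = 0.264) with no overlap. Atp6v1b2 was at 0.23 ± 0.11, Atp6v1a at 0.03 ± 0.12 and the scarce Atp6v0d2 at 1.46 ± 1.04, and none passed. Gla had 4.26, 16.8 and 12.7 CPM in aged vehicle and 5.92, 5.93 and 5.41 CPM in young vehicle libraries, with overlap and a log2 fold change of 0.96 ± 0.35 (adjusted p = 0.22). It was called without aged vehicle library 1 (1.36, adjusted p = 0.0022), without the libraries numbered 1 (1.38, adjusted p = 0.0317) and with no filter on low counts (1.00, adjusted p = 1.84e-05), and in none of the other 12 settings. Lamp1 had 1554, 1793 and 1804 CPM in aged vehicle against 1263, 1487 and 1567 CPM in young vehicle libraries, one of 0.25 ± 0.10, and Psap had 4132, 4636 and 4658 CPM in aged vehicle against 3421, 4027 and 4008 CPM in young vehicle libraries, one of 0.23 ± 0.14. Cd68 had 746, 938 and 921 CPM in aged vehicle and 697, 799 and 829 CPM in young vehicle libraries, and its 95% interval on the log2 scale was -0.12 to 0.45. For Grn it was -0.19 to 0.22, with 1885, 2142 and 2136 CPM in aged vehicle against 1775, 2160 and 2150 CPM in young vehicle libraries. Lgmn at -0.01 ± 0.09, Gusb at -0.06 ± 0.10, Mcoln1 at 0.07 ± 0.17 and Tfe3 at -0.02 ± 0.09 were near 0. Ctsd was at 0.16 ± 0.15, with overlap. Tfeb was at -0.18 ± 0.13 (adjusted p = 0.615), with every aged vehicle library below every young vehicle library.

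Under bexarotene, age again gave 0 called genes of 42, against 0.96% of all genes tested. Here 32 of the 42 had a log2 fold change above 0, 5 (11.9%) had an unadjusted p under 0.05 against 11.4% of all genes tested, and the median was 0.051 against -0.00979 over all genes tested. In 14 of the 42 all libraries of one age lay on one side of the other age, against 16.8% of all genes tested, and DESeq2 and limma voom called 0. Lamp1 had the lowest p, with 1728, 1913 and 1719 CPM in aged bexarotene against 1387, 1556 and 1534 CPM in young bexarotene libraries, a log2 fold change of 0.26 ± 0.10 (adjusted p = 0.276). Ctss had 8193, 9774 and 8490 CPM in aged bexarotene and 6433, 7692 and 7759 CPM in young bexarotene libraries, one of 0.27 ± 0.12. Ctsz and Ctsb were at 0.31 ± 0.14 and 0.26 ± 0.14.

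**Figure D4:**
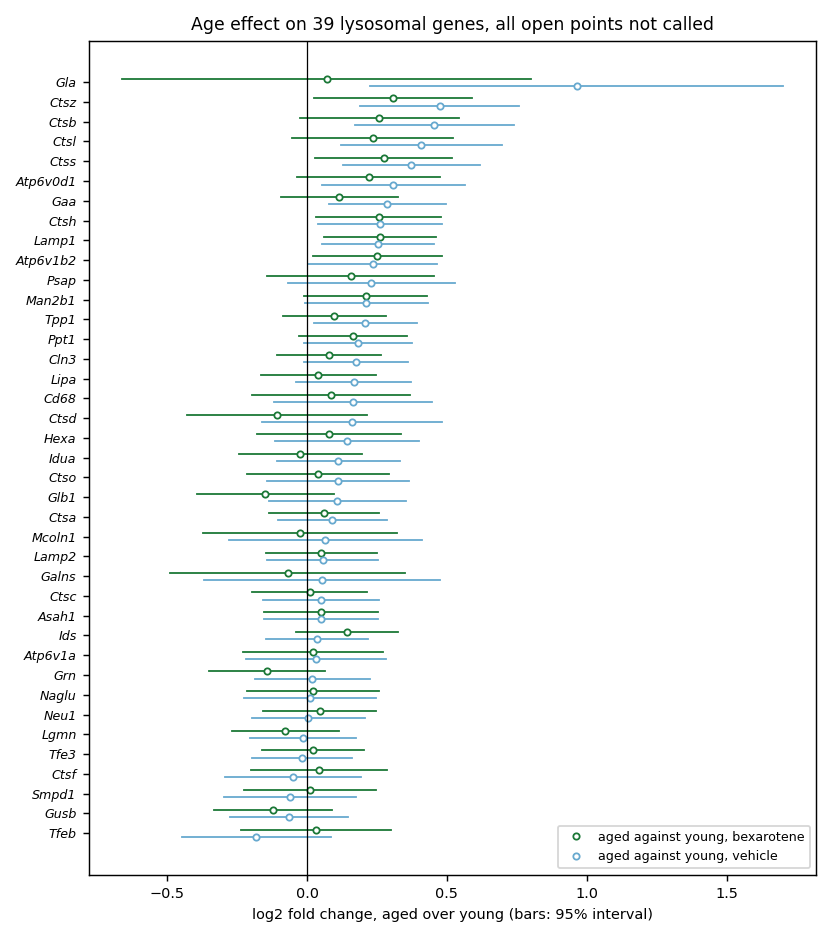
Log2 fold change of aged over young mice (horizontal axis, bars are 95% intervals, n = 3 libraries per group) for 39 lysosomal genes, under bexarotene (green) and vehicle (blue), without the 3 genes whose mean was under 5 CPM in every group without stroke. Every point is open because none passed the test, and Gla has the widest intervals.

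Among the other pathway genes age called few. Under vehicle Cst7, a cystatin of activated microglia, was higher in aged mice (3.17 ± 0.47, at 47.6 CPM in aged vehicle against 5.39 CPM in young vehicle libraries), and so was Cd63 (0.92 ± 0.14). Arsb, a sulfatase, was lower (-0.78 ± 0.14), and so was Tfec (-1.83 ± 0.42, at 0.714 CPM in aged vehicle against 2.6 CPM in young vehicle libraries). Under bexarotene Cst7 was higher (2.86 ± 0.49) and Arsb lower (-0.62 ± 0.14) in aged mice.

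Bexarotene changed none of the 42 lysosomal genes past the test in any of the 3 settings, while RXR targets did rise. Abca1, Abcg1, Tgm2 and Eepd1, targets of RXR and its partners, were all 4 called higher in young and in aged mice, and 1 of them (Abcg1) in aged mice with stroke. Their summed level was 1740 to 2270 CPM in young bexarotene against 609 to 769 CPM in young vehicle libraries, and 1720 to 2010 CPM in aged bexarotene against 606 to 701 CPM in aged vehicle libraries. With stroke it was 1580 to 2220 CPM in aged stroke bexarotene against 830 to 1040 CPM in aged stroke vehicle libraries. Called lysosomal genes were 0 of 42 in young mice, in aged mice and in aged mice with stroke, against 0.509%, 0.258% and 0.058% of all genes tested. At an unadjusted p under 0.05 there were 3, 1 and 3 (7.14%, 2.38% and 7.14%), against 8.37%, 6.52% and 6.36% of all genes tested, and DESeq2 and limma voom called 0 in each. The median log2 fold changes of the 42 genes were 0.0349, -0.0659 and 0.0832. That of young mice was -0.04 without young vehicle library 1. The authors' deposited tables of these 3 comparisons list 197, 149 and 96 genes, and none of the 42. Some marker sums did not overlap here either, though no single gene of the lists that follow was called. The sum of 8 astrocyte genes was 586 to 914 CPM in young bexarotene against 307 to 427 CPM in young vehicle libraries, most of it Slc1a3 (700.4 CPM in young bexarotene against 342 CPM in young vehicle libraries), while the list's median log2 fold change was -0.158. The 12 neutrophil genes summed to 1070 to 2100 CPM in aged bexarotene against 684 to 953 CPM in aged vehicle libraries, and the 12 monocyte genes to 366 to 467 CPM in aged bexarotene against 296 to 304 CPM in aged vehicle libraries. With stroke, 8 border macrophage genes summed to 708 to 1010 CPM in aged stroke bexarotene against 1090 to 1150 CPM in aged stroke vehicle libraries. Their part in the values was not tested.

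In young mice Tfe3 had the lowest p, with 173, 193 and 193 CPM in young bexarotene against 234, 219 and 214 CPM in young vehicle libraries, a log2 fold change of -0.25 ± 0.09 (adjusted p = 0.325). Lipa had 201, 238 and 242 CPM in young bexarotene and 177, 185 and 200.2 CPM in young vehicle libraries, one of 0.28 ± 0.10 (adjusted p = 0.366). Lgmn had 3605, 4023 and 3606 CPM in young bexarotene against 2859, 3520 and 3343 CPM in young vehicle libraries, one of 0.21 ± 0.09 (adjusted p = 0.519). In these 3 the groups did not overlap, which held for 6 of the 42 and for 13.1% of all genes tested. Ctsd had 7596, 8548 and 9390 CPM in young bexarotene against 6548, 8167 and 7824 CPM in young vehicle libraries with overlap, one of 0.18 ± 0.15. Tfeb had 47.5, 68.8 and 60.6 CPM in young bexarotene and 59.5, 67.7 and 60.9 CPM in young vehicle libraries, one of -0.09 ± 0.13, and Mcoln1 had 112, 81.7 and 112 CPM in young bexarotene against 104, 75.5 and 86.0 CPM in young vehicle libraries, one of 0.21 ± 0.17.

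Several abundant genes were close between the young groups. Ctsb had 4012, 4685 and 4836 CPM in young bexarotene and 3653, 4581 and 4439 CPM in young vehicle libraries, and Ctsl had 832, 989 and 967 CPM in young bexarotene against 756, 917 and 955 CPM in young vehicle libraries. Gusb had 388, 382 and 402 CPM in young bexarotene and 336, 372 and 386 CPM in young vehicle libraries, and Psap had 3881, 3885 and 3709 CPM in young bexarotene against 3421, 4027 and 4008 CPM in young vehicle libraries. The groups overlapped in all 4. Grn had 2016, 2083 and 2122 CPM in young bexarotene against 1775, 2160 and 2150 CPM in young vehicle libraries, and Cd68 678, 827 and 752 CPM in young bexarotene against 697, 799 and 829 CPM in young vehicle libraries, with 95% intervals of the log2 fold change of -0.17 to 0.24 and -0.32 to 0.24.

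In aged mice without stroke Tfe3 again had the lowest p, with a log2 fold change of -0.21 ± 0.09 and overlapping groups (adjusted p = 0.659). Lgmn and Lipa were at 0.15 ± 0.09 and 0.15 ± 0.10, with every aged bexarotene library above every aged vehicle library, and these were the 2 of the 42 genes without overlap, against 11.8% of all genes tested. In aged mice with stroke the lowest p values were those of Grn (0.23 ± 0.10), Ctsd (0.36 ± 0.15) and Ids (-0.20 ± 0.09), each with an adjusted p of 0.72. The groups did not overlap for Ids and Tfe3 (-0.13 ± 0.09), 2 of the 42, against 11.3% of all genes tested. In all, Tfe3 was at -0.25, -0.21 and -0.13 in young, aged and aged stroke mice, comparisons that share no libraries with each other. Tfe3 was singled out for its low p in young and aged mice and was called in none of them. Lipa (0.28, 0.15 and 0.07) and Lgmn (0.21, 0.15 and 0.08) also kept one sign. How often a sign is shared was not computed over all genes tested. Of the other hydrolases, Dnase2a was called higher with bexarotene in young mice (0.39 ± 0.08, adjusted p = 0.049).

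**Figure D5:**
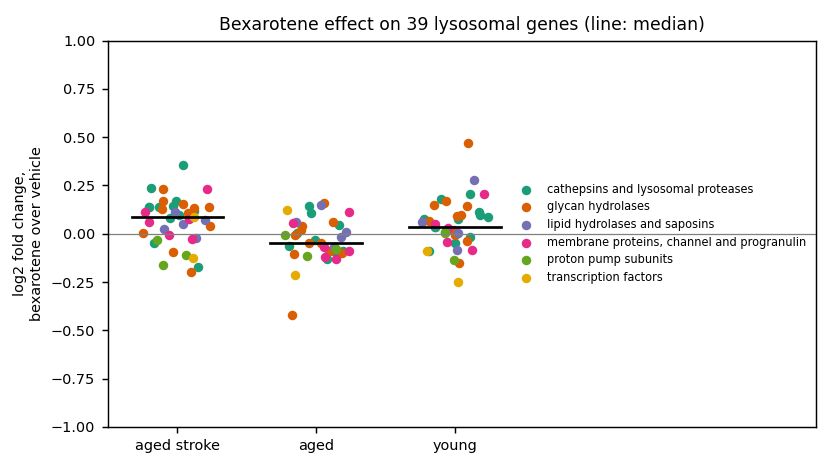
Log2 fold change of bexarotene over vehicle (vertical axis) for 39 lysosomal genes in aged stroke, aged and young mice, 1 point per gene coloured by role, with a line at the median of the 39, without the 3 genes whose mean was under 5 CPM in every group without stroke. The points lie around 0 in all 3 settings and none passed the test.

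The effect of bexarotene was also compared between settings. Between aged and young mice 0 of all 15528 genes differed in that effect by edgeR, and between the aged stroke and aged settings 0 of 15528 differed, so 0% of genes were called in either. At an unadjusted p under 0.05 there were 0 of the 42 genes and 456 of all genes for age, and 1 of the 42 and 638 of all genes for stroke (2.94% and 4.11% of all genes tested). The 1 gene was Grn, whose bexarotene effect was larger with stroke by 0.36 ± 0.14 on the log2 scale (unadjusted p = 0.0179, adjusted p = 1). For Ctsd the difference was 0.44 ± 0.22, with a 95% interval of -0.01 to 0.90. The same differences measure how far the effect of stroke differed under bexarotene and under vehicle, so that the calls of Ctsd, Glb1 and Lamp2 under bexarotene alone are not shown to differ from their results under vehicle.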

How the data were processed

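Raw whole-number counts of reads per gene, 1 column for each of the 18 libraries and 1 row per Ensembl identifier, are what the authors deposited. GRCm39 is the genome build in the submitters' processing notes, which also name the tools Trimmomatic 0.40, STAR 2.7.10a, GATK and R 4.4.2. No source used here states which annotation was counted or whether strand was used, so antisense, overlapping or near-identical genes may share reads. Results of 4 comparisons by the authors themselves were deposited as well. Per the file headers these deposited tables hold a baseMean (the authors' mean normalized count, a signal per gene), a log2 fold change, its standard error (listed as a score) and p-values. Only genes with an adjusted p of at most 0.05 are listed in them, and the tool is not stated.

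Symbols came from GENCODE M21, which named 52029 of 57010 genes. Counts were filtered with filterByExpr, scaled by TMM and fitted with edgeR 4.0.16 (limma 3.58.1, R 4.3.3) in 1 robust quasi-likelihood model of all 18 libraries and 6 groups, with 12 residual degrees of freedom. P-values were adjusted by Benjamini-Hochberg over the 15528 genes tested. The SE of a log2 fold change was derived from the F statistic. With 3 against 3 libraries an exact permutation test of a single value cannot go below 0.1. A floor of 3 counts was 0.396 CPM in the shallowest library, and floors and counting intervals cover counting error only. P-values measure the spread between libraries labelled as biological replicates. No 2 libraries of a group agreed within sampling noise.

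Alternatives were DESeq2 1.42.0 or its size factors, library totals, limma voom, no filter, only the groups compared, thinned counts, the replicate number as a block, each library left out in turn and, added after seeing the data, the libraries numbered 1 left out together. Same-numbered libraries deviated together (correlation over 0.1 in all 3 pairs) in the age comparison under bexarotene (0.109, 0.3 and 0.126) and in the bexarotene comparison in young mice (0.259, 0.276 and 0.14), with no pairing stated in the labels, and there the block left the count of called lysosomal genes at 0.

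The 42 genes, the lists of other genes and the comparisons were chosen with earlier results of these data known. Every called gene of the 42 is named. Values per library are given for up to 3 called genes with the largest change per role and for 14 genes chosen by name. Promoter windows came from RefSeq on GRCm38.p6, and no coordinate was converted to the build of the counts.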

Additional observations from a re-analysis of the deposited data

How the results depend on the processing

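With stroke, the count of called lysosomal genes stayed within 1.5 times the reported one under every alternative run. It was 27 to 30 under vehicle (reported 29) and 26 to 29 under bexarotene (reported 28) with single libraries left out, and up to 31 in the other settings. No fold change of a called gene changed its direction. The count for age under vehicle, reported as 0, was 2 with library totals, 3 with DESeq2, 4 with no filter on low counts and 1 without the libraries numbered 1, and it ran from 0 to 2 with single libraries left out (2 without aged vehicle library 1). With the replicate number as a block it was 2 (Ctsl and Ctsz). In that comparison same-numbered libraries did not all deviate together (correlations of 0.386, 0.229 and -0.0143), nor did they in the stroke comparisons or in the bexarotene comparisons of aged mice, and the block moved no other count by over 1.5 times. For bexarotene in aged stroke mice the count was 1 with no filter (Ctsk, lower), against 0 reported. The cause was not tested. Across all genes, library totals moved the share of higher calls for bexarotene in young mice to 95.2%, against 82.3% with TMM. Scarce transcripts (Ctsk, Atp6v0d2 and Ctse) limit what can be said at this depth.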

Other observations

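Markers of cells outside the microglial lineage were present at uneven levels. The summed level of 7 choroid plexus and ependymal genes was 140 to 710 CPM in aged stroke bexarotene, 914 to 3170 CPM in aged stroke vehicle, 508 to 1750 CPM in aged bexarotene, 204 to 2640 CPM in aged vehicle, 252 to 2070 CPM in young bexarotene and 411 to 2550 CPM in young vehicle libraries. A list of 8 oligodendrocyte genes summed to 180 to 303 CPM over all groups, which overlapped. Astrocyte genes summed to 122 to 163 CPM in aged stroke vehicle against 337 to 488 CPM in aged vehicle libraries, with Slc1a3 lower (106 CPM in aged stroke vehicle against 366 CPM in aged vehicle libraries), Gfap higher and the other 6 of 8 not called. Lymphocyte genes summed to at most 41.9 CPM in any group. Border macrophage genes summed to 1090 to 1150 CPM in aged stroke vehicle against 526 to 680 CPM in aged vehicle libraries, where 3 of 8 (F13a1, Pf4 and Ms4a7) were called higher. Without F13a1, which the monocyte list also holds, the sums overlapped at 362 to 506 CPM in aged stroke vehicle and 360 to 459 CPM in aged vehicle libraries. Under bexarotene the same 3 were higher with stroke and 4 (Mrc1, Cd163, Lyve1 and Cbr2) were lower. Endothelial and pericyte genes summed to at most 42 CPM.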
